A study of Caenorhabditis elegans with 3 samples.

Results

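The transthyretin-related *ttr* genes of *Caenorhabditis elegans* were examined in animals of the late L4, the final larval stage, which ends with the molt to the adult. The members are the 46 genes whose symbol in the array's platform annotation is ttr followed by a number, out of 19292 genes and unnamed features tested. The unnamed features, 4180 rows without a single gene symbol, count among all genes tested below. They have no chromosome, so shares by chromosome leave them out. Each of the 46 has 1 feature on the array and was measured on all 3 arrays, so no member was lost to a filter. The RefSeq gene table for assembly WBcel235 holds 59 *ttr* symbols, and 13 of them, *ttr-33* among these, are not among the members. Whether a feature listed under several symbols or an older name stands for any of the 13 was not checked. The same table holds *ttr-4* as a pseudogene and the other members as protein-coding genes. Single members were chosen by name alone, but the family as a whole was selected on the log2 ratios of these same 3 arrays, which were already known. All values and calls below are therefore a description.

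On each of the 3 two-colour arrays, channel 2 held a late L4 RNA (code TP05; preps 1, 2 and 3, an array apiece) and channel 1 a mixed reference RNA of wild-type worms. The channels held the same kinds of RNA on every array, with no swap, and the labels do not give the genotype of the late L4 animals, what the reference was mixed from, or whether the preps were separate cultures. The spread between preps may therefore be technical. Without a swap, a gene-specific difference between the channels repeats on every array. It cannot be told apart from a difference in RNA level, in any mean or call below. Values are log2 ratios as deposited, taken as late L4 over reference. That direction is likely from the order of the RNAs in the sample descriptions, and it is not stated with the values. With the ratio turned the other way, every higher and lower call and every rank below would change places.

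Transthyretin is a small secreted protein that carries thyroid hormone and retinol-binding protein in vertebrates. Nematodes have a large family of distantly related proteins, most of them small and predicted to be secreted, and the role of most single members is not known. The best studied in *C. elegans* are TTR-52, a secreted protein that binds phosphatidylserine on dying cells and bridges it to the engulfment receptor CED-1, and TTR-33, which protects dopaminergic neurons from oxidative damage. A further, distinct group of transthyretin-like proteins resembles 5-hydroxyisourate hydrolase, an enzyme of urate breakdown known from bacteria and vertebrates.

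Taken as late L4 over reference, many *ttr* transcripts were at lower levels in late L4 animals and a few at higher levels. Of the 46 genes, 19 (41.3%) were called lower, where 10.8% of all genes tested were, and 3 (6.52%) were called higher, where 12.0% were. A gene was called at an adjusted p under 0.05 in a limma fit across all 19292 genes. With at least a 2-fold difference as well, 14 members were lower (6.05% of all genes) and 2 were higher (8.60% of all genes). The remaining 24 were not called, 17 with a mean below 0 and 7 above it. In RNA of whole animals, fewer cells of a type and less RNA per cell cannot be told apart.

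The median of the 46 mean log2 ratios was -0.59, with quartiles at -1.09 and -0.08. Over all genes tested the median was -0.03, with quartiles at -0.36 and 0.33, and 14.7% of all genes had a mean below the *ttr* median. Values were below 0 on all 3 arrays for 27 members, above 0 on all 3 for 5 and of mixed sign for 14. Across all genes tested, 27.9% were below 0 on all 3 arrays, 23.2% above and 48.8% mixed. All 19 lower calls and all 3 higher calls had the same sign on every array, and all 14 members of mixed sign were among those not called.

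**Figure D1:**
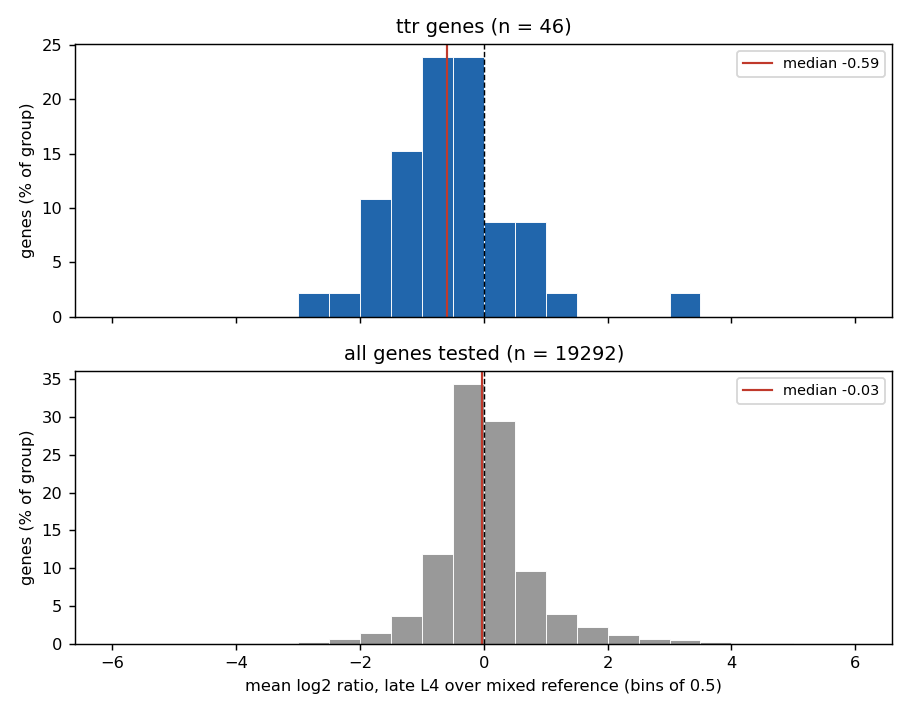
Share of genes in each bin of 0.5 log2 units of the mean log2 ratio (late L4 over mixed reference, 3 arrays), for the 46 *ttr* genes above and all 19292 genes tested below; red lines mark the medians, -0.59 and -0.03. The *ttr* genes lie mostly left of 0, with *ttr-14* alone at the right.

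Among the lower genes, *ttr-50* (F58B3.9, chromosome IV) was at the bottom, with log2 ratios of -3.38, -2.16 and -2.43 on preps 1, 2 and 3. Its mean of -2.66 ± 0.64 (SD, n = 3, as for all means below) is 6.30-fold lower and stands at rank 74 from the lowest of the 19292 genes. *ttr-26* (Y51A2D.11, chromosome V) had -2.04, -1.71 and -2.69, a mean of -2.15 ± 0.50 or 4.43-fold lower. These are the only members more than 4-fold lower on average, and neither came above -1.71 on any array. *ttr-29* (R90.4, chromosome V) followed with -1.49, -1.07 and -2.64, a mean of -1.74 ± 0.81 or 3.33-fold lower. *ttr-51* (JC8.8, chromosome IV) had -1.86, -1.32 and -1.80, a mean of -1.66 ± 0.29 or 3.16-fold lower. For both genes prep 2 gave the value nearest to 0, as it did for *ttr-50* and *ttr-26*.

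*ttr-21* (F09F3.6, chromosome V) had log2 ratios of -1.58, -0.83 and -2.45, a mean of -1.62 ± 0.81 or 3.07-fold lower. *ttr-54* (T14G10.4, chromosome IV) had -2.43, -0.69 and -1.58, a mean of -1.57 ± 0.87 or 2.97-fold lower. Both were below 0 on every array with a wide spread between preps. The next genes were lower by similar amounts with a smaller spread. *ttr-5* (C40H1.5, chromosome III) averaged -1.51 ± 0.36, *ttr-17* (Y5F2A.2, chromosome IV) -1.45 ± 0.14 and *ttr-2* (K03H1.4, chromosome III) -1.44 ± 0.04, with *ttr-2* at -1.42, -1.49 and -1.41 on the 3 preps. The SD of *ttr-2* was the smallest of the 46, whose median SD was 0.36, as was that of all genes tested.

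The first gene of the family by number, *ttr-1* (K03H1.6, chromosome III), had log2 ratios of -1.76, -1.10 and -0.92, a mean of -1.26 ± 0.44 or 2.39-fold lower. *ttr-27* (R90.2), *ttr-37* (F21E9.3), *ttr-24* (Y51A2D.9) and *ttr-44* (C56A3.2) averaged -1.25 ± 0.28, -1.09 ± 0.38, -1.09 ± 0.26 and -1.04 ± 0.12, all just over 2-fold lower. *ttr-37* is the only lower call on the X chromosome. It missed the threshold without prep 3 (mean -0.88, limma, adjusted p = 0.064).

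The other 5 lower calls were under 2-fold and less stable. *ttr-15* (T07C4.5) had -0.60, -0.23 and -1.91, a mean of -0.91 ± 0.88 set mainly by prep 3. Over preps 1 and 2 it averaged -0.42 (limma, adjusted p = 0.41). *ttr-58* (F56F4.1) averaged -0.91 ± 0.34, *ttr-20* (F36A4.8) -0.90 ± 0.07, *ttr-28* (R90.3) -0.77 ± 0.31 and *ttr-18* (B0334.1) -0.73 ± 0.18. *ttr-58* lost its call without prep 1 or prep 2, *ttr-20* without prep 2 or prep 3, *ttr-28* without prep 1 or prep 3, and *ttr-18* without any 1 prep (limma, adjusted p up to 0.19 among these 4 genes). Median centring of the arrays ended the calls of *ttr-15* (adjusted p = 0.078), *ttr-18* (0.054) and *ttr-28* (0.056), as did centring with scaling (adjusted p = 0.099, 0.056 and 0.058). At the threshold, *ttr-15* was just inside (adjusted p = 0.039) and *ttr-30* (T08A9.2) just outside (adjusted p = 0.052), with nearly the same mean. *ttr-30* had -0.29, -0.36 and -2.08, a mean of -0.91 ± 1.02 set mainly by prep 3. It was called lower without prep 1 (-1.22) and without prep 2 (-1.19), but over preps 1 and 2 it averaged -0.33 (limma, adjusted p = 0.54).

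The highest member was *ttr-14* (T05A10.3, chromosome X), with log2 ratios of 3.44, 2.76 and 3.69 on preps 1, 2 and 3. Its mean of 3.30 ± 0.48 is 9.82-fold higher and stands at rank 94 from the highest of all 19292 genes. *ttr-9* (C33A12.15, chromosome IV) had 1.28, 1.32 and 1.80, a mean of 1.47 ± 0.29 or 2.76-fold higher. Even the lowest *ttr-14* value, 2.76, was above every value of every other member, the highest of which was 1.88 for *ttr-55* on prep 3. *ttr-12* (F46B3.4, chromosome V) was 1.75-fold higher, at 1.05, 0.38 and 0.98 with a mean of 0.80 ± 0.37. Its call was lost without prep 1 (mean 0.68, limma, adjusted p = 0.15) and without prep 3 (mean 0.71, adjusted p = 0.15).

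**Figure D2:**
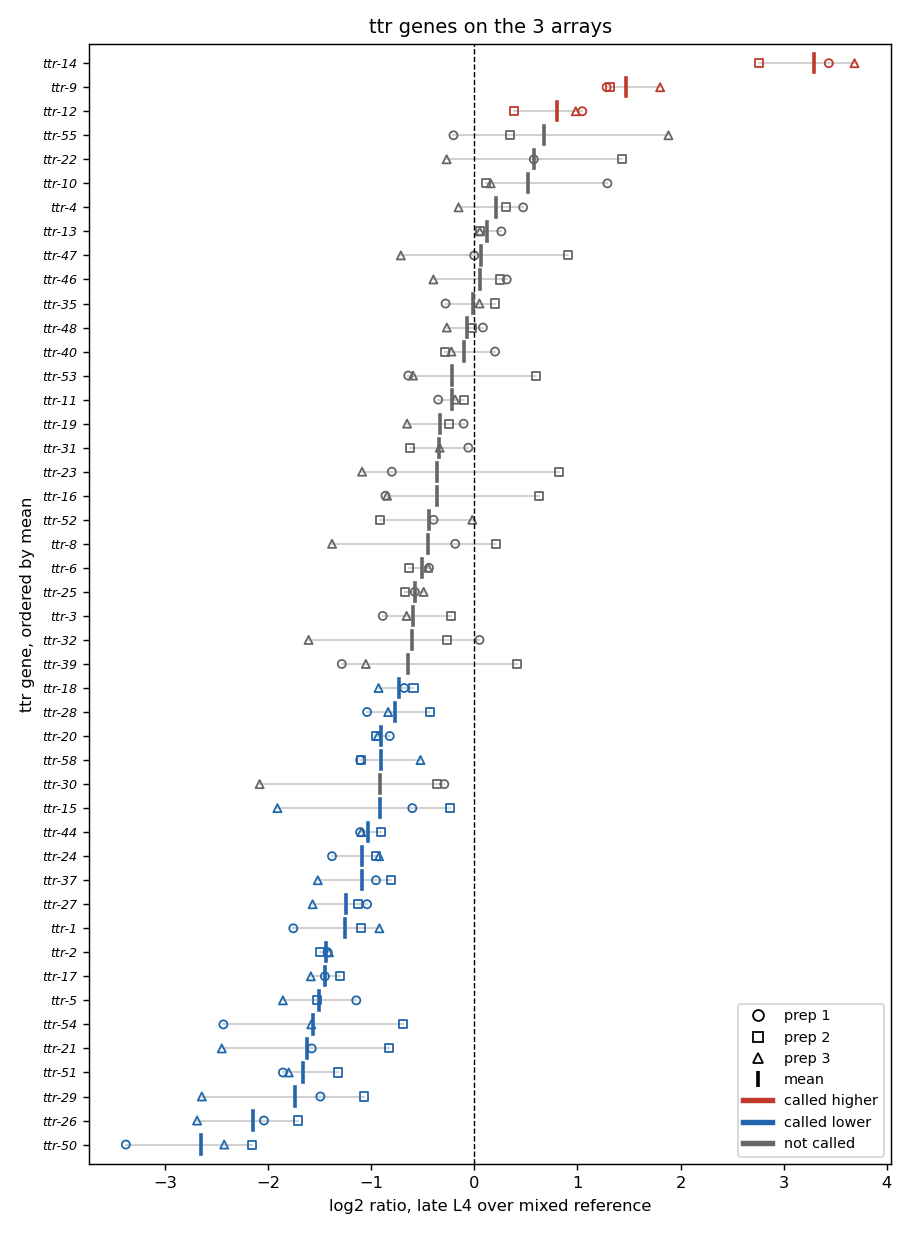
Log2 ratio (late L4 over mixed reference) of each of the 46 *ttr* genes on the 3 arrays: open symbols are preps, thick ticks are means, and grey lines span the preps. Genes are ordered by mean, from *ttr-14* at 3.30 to *ttr-50* at -2.66, and coloured by call, with 3 higher, 19 lower and 24 not called.

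The 24 members that were not called had means from -0.91 (*ttr-30*) to 0.67 (*ttr-55*), and 9 of them lay within 0.25 log2 units of 0. Of *ttr-30*, *ttr-55* and *ttr-39*, which had the 3 largest absolute means among them, *ttr-55* (F56F4.2) had -0.20, 0.34 and 1.88, a mean of 0.67 ± 1.08. *ttr-39* (C04G2.1) had -1.29, 0.42 and -1.05, a mean of -0.64 ± 0.92. Both changed sign between preps, *ttr-55* being high only on prep 3 and *ttr-39* above 0 only on prep 2. *ttr-55* was called higher without prep 1 (mean 1.11, limma, adjusted p = 0.021), but its mean was 0.07 without prep 3. *ttr-39* was called lower without prep 2 (-1.17, limma, adjusted p = 0.0048).

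The following members were below 0 on every array and were not called, and some of their values were close to 0. *ttr-3* (K03H1.3) averaged -0.59 ± 0.33, *ttr-25* (Y51A2D.10) -0.58 ± 0.09 and *ttr-6* (T28B4.3) -0.51 ± 0.11. *ttr-31* (F58A3.5) had a mean of -0.34 ± 0.28, *ttr-19* (C12D8.4) of -0.34 ± 0.28 and *ttr-11* (F46B3.3) of -0.21 ± 0.13. Close to 0 were *ttr-40* (-0.10 ± 0.27), *ttr-48* (-0.07 ± 0.18), *ttr-35* (-0.01 ± 0.25), *ttr-46* (0.06 ± 0.39), *ttr-13* (0.12 ± 0.12) and the pseudogene *ttr-4* (0.21 ± 0.32). *ttr-10* (F19F10.4) was above 0 on all arrays, at 1.29, 0.12 and 0.16, and its mean of 0.52 ± 0.67 was set mainly by prep 1.

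The family's log2 ratios differed between preps. The median log2 ratio of the 46 genes was lowest on prep 3 (-0.84), followed by prep 1 (-0.62) and prep 2 (-0.32). The medians of all genes on these preps were -0.06, 0.01 and -0.10. Values were below 0 for 35, 30 and 39 members on preps 1, 2 and 3. Prep 2 gave the highest of the 3 values for 22 of the 46 members, where it did so for 30.4% of all genes, and prep 3 gave the lowest for 20 (34.3% of all genes). Without prep 3 the median of the members' means was -0.43, and without prep 2 it was -0.79.

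A minority of members had a wide spread between preps. An SD over 0.8 log2 units was found for 13 of the 46 (28.3%), against 7.69% of all genes tested. Prep 2 was the highest array for 10 of these 13 and prep 3 the lowest for 9. The matching shares among all genes with so wide a spread were not computed, so this order may not be particular to the *ttr* genes. *ttr-23* (T21C9.8) had -0.80, 0.82 and -1.09, *ttr-16* (Y5F2A.1) -0.86, 0.62 and -0.85, *ttr-47* (H14N18.3) -0.0014, 0.91 and -0.71, and *ttr-22* (T04H1.3) 0.58, 1.44 and -0.27. In each of these 4 genes prep 2 stood highest and prep 3 was below 0. *ttr-23* was called lower without prep 2 (mean -0.95) and had a mean of 0.01 without prep 3, and *ttr-22* was called higher without prep 3 (mean 1.01). *ttr-32* (R13A5.3) had 0.05, -0.26 and -1.61 and *ttr-8* (R13A5.6) -0.19, 0.21 and -1.38, so these 2 were far below 0 on prep 3 only, like *ttr-30* and *ttr-15*.

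The yolk protein gene *vit-2* was also low on prep 3, with log2 ratios of -0.68, -0.28 and -3.28, while *vit-5* (0.20, -0.50 and -0.09) and *vit-6* (0.64, -0.01 and -0.04) were not. These are the 3 vitellogenin genes measured of 6 listed. Only *vit-2* was called, as lower (mean -1.41 ± 1.63, limma, adjusted p = 0.023), where 10.8% of all genes were. The part of these genes in the *ttr* values was not tested. As a check of the stage, in the direction taken above, 29 of 30 major sperm protein genes were called higher, where 12.0% of all genes tested were. These genes mark sperm formation in L4 hermaphrodites. The called ones had means from 1.54 to 4.19, and *msp-38* (0.02) was not called. Whether their probes also detect each other's RNA was not examined. Of 9 measured genes of male-specific cells or male fertility, limma called 0 (1 at an unadjusted p under 0.05), with means from -0.41 to 0.60. Over all genes tested, 12.0% were called higher and 10.8% lower, so this short list cannot show whether males were present.

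Across the 46 genes, the log2 ratios of preps 1 and 2 had a Pearson correlation of 0.81 (Spearman 0.74), those of preps 1 and 3 one of 0.81 (0.76) and those of preps 2 and 3 one of 0.73 (0.61). Without *ttr-14* the Pearson values were 0.73, 0.72 and 0.62. Over all 19292 genes they were 0.70, 0.73 and 0.69. The arrays share the reference RNA, and genes are not independent replicates.

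Many *ttr* genes sit side by side. In the gene order of the RefSeq table, 29 *ttr* genes fall into 12 runs in which neighbours have at most 2 other protein-coding genes between them, a limit set after the values were seen. In 8 of these runs at least 2 members were measured, 19 genes in all. Their protein sequences were not compared here and the type of probe is not given, so a probe may also detect a neighbour of similar sequence. No difference between neighbours was tested.

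On chromosome III, *ttr-3*, *ttr-2* and *ttr-1* adjoin each other and were all below 0, with means of -0.59, -1.44 and -1.26. The values of *ttr-2* (-1.49 to -1.41) did not overlap those of *ttr-3* (-0.89 to -0.23). The run *ttr-27*, *ttr-28* and *ttr-29* on chromosome V was called lower throughout, with means of -1.25, -0.77 and -1.74. In the other chromosome V triplet, *ttr-24* and *ttr-26* were called lower (-1.09 and -2.15) and *ttr-25* between them was not (-0.58), and the values of *ttr-25* overlapped those of neither. The pair *ttr-8* and *ttr-32* on chromosome III shared a low value on prep 3 and had means 0.15 log2 units apart, the smallest distance within any run.

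Other neighbours were further apart. On chromosome IV, *ttr-54* had a mean of -1.57 and *ttr-53* (T14G10.3) one of -0.21 ± 0.70, with values of -0.64, 0.60 and -0.60. Next to each other on the same chromosome, *ttr-17* averaged -1.45 and *ttr-16* -0.36 ± 0.85. Both *ttr-53* and *ttr-16* were above 0 on prep 2 alone. On chromosome V, *ttr-12* was above 0 on all 3 arrays and *ttr-11* below 0 on all 3. The means of *ttr-55* (0.67) and *ttr-58* (-0.91) on chromosome I were 1.58 log2 units apart, the largest distance, with *ttr-55* far above 0 on prep 3 only.

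**Figure D3:**
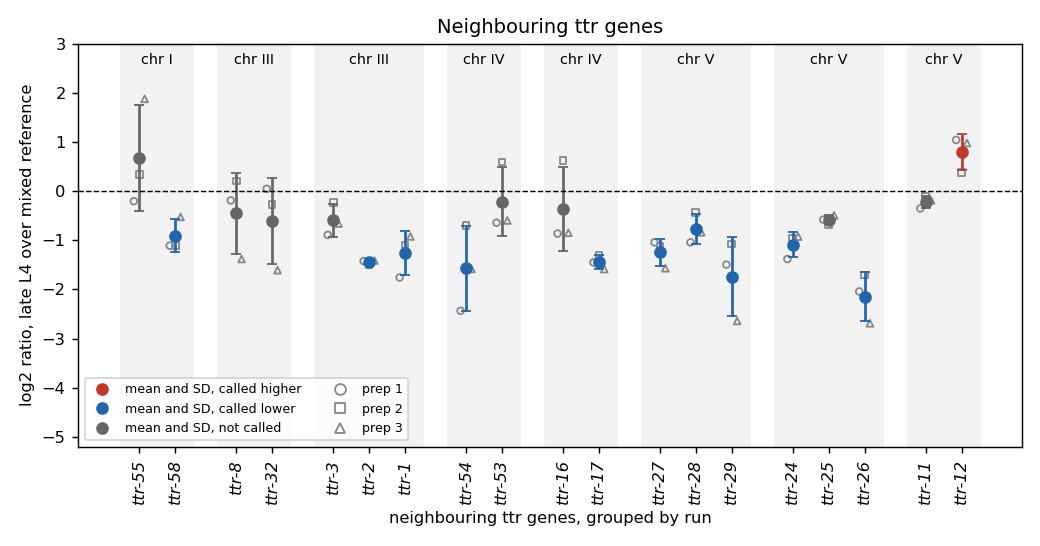
Log2 ratio (late L4 over mixed reference) of the 19 measured *ttr* genes in the 8 runs of neighbouring genes; filled points are means with SD over 3 preps, coloured by call, and open symbols are preps. In the run *ttr-27* to *ttr-29* all 3 genes were called lower, and in the run of *ttr-11* and *ttr-12* the genes lay on either side of 0.

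By chromosome, 18 of the 46 genes lie on V, 9 each on III and IV, 7 on the X, 2 on I and 1 on II. Lower calls numbered 7 on V, 4 on III, 5 on IV and 1 each on the X, I and II. The share of all genes called lower was 13.2% on V, 8.97% on III, 11.7% on IV, 14.4% on the X, 12.2% on I and 10.8% on II. The 3 higher calls lie on V, IV and the X, 1 on each, where 9.75%, 18.1% and 7.53% of all genes were called higher, so the X chromosome holds *ttr-14* beside *ttr-37*, which was lower, and 5 members that were not called.

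*ttr-52* (F11F1.7), the engulfment bridging gene, had log2 ratios of -0.40, -0.92 and -0.02, a mean of -0.44 ± 0.45, and was not called. Its values were below 0 on all 3 arrays, but only just so on prep 3. Of 16 other genes of phosphatidylserine exposure, corpse recognition and engulfment, 14 were measured. Among these, 1 was called higher (12.0% of all genes tested), 1 lower (10.8% of all genes) and 12 not. Their median was 0.12, and it was -0.036 without prep 1. The engulfment receptor gene *ced-1* averaged -0.38 ± 0.54, and the genes of the other partners in phosphatidylserine recognition averaged 0.10 ± 0.15 for the transporter *ced-7*, 0.37 ± 0.38 for the secreted lipid-binding protein *nrf-5* and 0.54 ± 0.25 for the receptor *psr-1*. None of these 4 was called.

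The gene called lower was *ced-8*, which encodes a membrane protein that promotes exposure of phosphatidylserine on dying cells, with -1.24, -1.06 and -1.08 and a mean of -1.13 ± 0.10. The gene called higher was *wah-1*, a homologue of apoptosis-inducing factor, with 1.02, 1.23 and 0.26 and a mean of 0.84 ± 0.51. The *wah-1* call was lost without prep 1 (limma, adjusted p = 0.12) and without prep 2 (adjusted p = 0.21). Both genes resembling 5-hydroxyisourate hydrolase lay near the reference, *ZK697.8* at -0.23 ± 0.44 and *R09H10.3* at -0.0023 ± 0.44, and limma called 0 of them (0 at an unadjusted p under 0.05).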

How the data were processed

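The authors deposited 1 log2 ratio per feature and array for 20000 features, of which 19903, 19840 and 19825 were measured on preps 1, 2 and 3. For dyes, background correction, normalization, probe type and genome build, the sources used here give nothing, so no coordinates are printed, and spot intensities were not analysed here. Signal over background is unknown, and the number of arrays limits the precision. Symbols came from the platform annotation, updated by Entrez ID with the RefSeq table for WBcel235 (15569 features and all 46 *ttr* features matched). Averaging the 19736 features with a value on every array per gene left 19292 rows. A two-sided limma fit (version 3.58.1 in R 4.3.3; lmFit, then eBayes) set each row's mean over the arrays against 0, with p-values adjusted by Benjamini-Hochberg over all rows. The fit had 2 residual degrees of freedom and a prior of 12.8, and the reference had no replicate. It was tested on simulated data. Means were converted to fold changes as powers of 2.

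The members and lists were chosen with earlier results of these data known. Every called member is named, with values per array for the 6 lowest, the called higher genes, *ttr-1* and *ttr-52*, as are the 3 members not called with the largest absolute means. Other members were added for completeness, and values per array of others after they were seen. From the engulfment list the called genes and 4 partners of *ttr-52* are named. Alternatives were median centring, centring with scaling, values on at least 2 arrays, robust eBayes, no moderation, features not averaged, stricter thresholds and leaving out each prep.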

Additional observations from a re-analysis of the deposited data

How the results depend on the processing

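No paired analysis was possible because all arrays belong to 1 group. What dim spots limit is unknown, since no signal intensities were analysed here. The count of lower *ttr* genes was 16 under median centring and under centring with scaling, where 8.85% and 8.64% of all genes were lower and the calls of *ttr-15*, *ttr-18* and *ttr-28* were lost. Leaving out 1 prep gave 14 to 19, with 6.93%, 9.21% and 7.09% of all genes lower without preps 1, 2 and 3. The count of higher genes stayed at 3 in these settings, though not always with the same genes. Of the 19 lower and 3 higher genes, 13 and 2 were called whichever 1 prep was left out. Each of these fits estimated its prior anew. Without prep 2, adjusted p-values of the named members followed the size of the mean, whatever the spread between the other preps. There *ttr-30* (-0.29 and -2.08 on preps 1 and 3) had an adjusted p of 0.0040 and *ttr-39* (-1.29 and -1.05) one of 0.0048 (limma). Calls without prep 2 therefore say little about a gene's own spread. The family's median was -0.54 with centring, -0.53 with scaling and -0.79 to -0.43 without 1 prep. With each gene's own variance, which leaves 2 degrees of freedom per gene, limma called 0 lower and 0 higher members, with 16 and 2 at an unadjusted p under 0.05. That setting called 0.00% of all genes either way, so it says nothing about the members. For the engulfment list, leaving out 1 prep gave 0 to 1 higher genes (0 to 1 at an unadjusted p under 0.05) and a median of -0.036 to 0.14, turning negative without prep 1. Values on at least 2 arrays, robust eBayes and features not averaged left the *ttr* counts at 19 and 3. The first and last of these settings did not alter the members' own values. The *ttr* counts could change there only through the other rows of the fit, so they say little about stability.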
